A study of Mus musculus with 34 samples.

Results

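The growth hormone and prolactin receptor axis was followed through 10 genes in mouse liver tumors and livers driven by a MYC transgene. The genes were taken by symbol from each of 3 deposited expression tables: the receptors Ghr and Prlr, the kinase Jak2, the transcription factors Stat5a, Stat5b and Bcl6, the inhibitors Socs2 and Cish, and the liver products Igf1 and Igfals. All 10 were listed in each table, of 46528 genes in the table of mixed-strain tumors, 16140 in that of FVB tumors and 14074 in that of Rag1-/- livers, and all 10 passed the filters on low values. Every mouse carried LAP-tTA and TRE-MYC, a MYC transgene that is switched on in hepatocytes when doxycycline is taken away. WT tumors came from mice with floxed Arid1a and no Cre, Het tumors from Arid1a fl/+ mice with Alb-cre, and Homo tumors from Arid1a fl/fl mice with Alb-cre, which acts in hepatocytes. Arid1a encodes a DNA-binding subunit of SWI/SNF, which remodels chromatin. On a mixed C57/B6, 129 and FVB background there were 8 WT and 8 Het tumors, with mice about 90 days old. On the FVB background, WT mice (4 tumors) were about 55 days old, Het mice (4 tumors) about 70 and Homo mice (4 tumors) about 100. Tumors were collected when the mice died, so in FVB both age and Cre cannot be told apart from genotype, and in the mixed strain Cre cannot. The Rag1-/- mice, labelled FVB and about 42 days old, were WT for Arid1a and lack mature lymphocytes. The livers were collected 14 days after infection by an adenovirus with human ARID1A (ad-ARID1A, 3 livers) or with Cre (ad-Cre, 3 livers), so the human ARID1A and the missing Cre virus cannot be told apart. The labels do not say whether samples of a group came from separate mice, so p-values measure the spread between these samples only.

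Growth hormone is released by the pituitary and binds GHR on hepatocytes. The receptor activates the kinase JAK2, which phosphorylates STAT5A and STAT5B, and in liver STAT5B drives most of the response. Known targets are Igf1, the main circulating growth factor, Igfals, which holds IGF1 in a stable complex in blood, and Socs2 and Cish, which dampen the receptor in return. PRLR belongs to the same receptor family and uses the same kinase and STATs. BCL6 is a repressor that binds many of the sites that STAT5 binds, and growth hormone is known to lower its transcript. The pattern of growth hormone release differs between the sexes and sets many sex-biased liver genes.

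Libraries held 2280000 to 5280000 reads in the mixed strain, 6630000 to 12020000 in FVB and 8710000 to 10620000 in Rag1-/- livers, and the mixed-strain libraries thus gave the fewest reads for a low gene. Levels are given in CPM, read counts scaled to library depth, and differences on the log2 scale with the standard error (SE) of limma's fit. A gene was called at an adjusted p under 0.05 over all genes of the table. The target of the deletion, Arid1a, lay at 249.7 to 329.8 CPM (median 260.4) in the mixed-strain Het tumors and at 314.2 to 490.1 (median 348.7) in WT tumors. The groups overlapped, and the difference was -0.41 ± 0.09 SE (limma adjusted p = 0.0830). In FVB it was -0.32 ± 0.17 in Het and -0.35 ± 0.17 in Homo tumors (adjusted p = 0.424 and 0.515). Reads outside the floxed part still count toward the gene. In Rag1-/- livers mouse Arid1a differed by 0.15 ± 0.11 (adjusted p = 0.619), which does not check the human transgene. The hepatocyte markers, 9 of 9 in each table, summed to 2749 CPM or more in every library, and reached 67450 to 83190 CPM in the Rag1-/- livers. Xist was below the Y-linked Ddx3y in all 34 libraries, though FVB Het 4 had Xist at 5.67 on the log2 scale (Ddx3y at 6.40) and the next highest library had 3.92. WT 1 and WT 2 stood apart from the other FVB libraries on the first principal component. In the mixed strain WT 2 was the highest library on the first component (65.3) and Het 5 the highest on the second (76.3). Mixed-strain Het 6 lay at the other end of the first component (-64.7) and was not left out with them.

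The STAT5 consensus TTCNNNGAA is its own reverse complement and so reads alike on both strands. It was looked up in the 250 bases before each start of RefSeq promoters of GRCm38.p6. Promoters were found for 9 of the 10 genes, with 17 starts. At least 1 match was present at 5 of the 17 starts (29.4%), against 7.02% of 32851 mouse promoters. Prlr, Igfals and Bcl6 held these matches, while Ghr, Igf1, Cish, Jak2, Stat5a and Stat5b held none in this window. A match is a string of letters and not a binding site, and no binding was measured here. Sequence of 3 starts is shown because Prlr and Igfals had the most negative differences of the 10 in both FVB comparisons with WT tumors and because Bcl6 held 3 matches in 1 promoter, which 0.0274% of promoters do. Capitals mark the matches, and each is read 5′ to 3′ on the gene's strand, upstream of the start. In GRCm38 the genes lie at chr15:3317760-3583492 (Ghr, minus strand), chr15:10177238-10349180 (Prlr, plus), chr10:87858265-87937042 (Igf1, plus), chr17:24865997-24882010 (Igfals, plus), chr10:95385362-95417180 (Socs2, minus), chr9:107296026-107302784 (Cish, plus), chr19:29251828-29313080 (Jak2, plus), chr11:100859351-100885169 (Stat5a, plus), chr11:100780731-100850724 (Stat5b, minus) and chr16:23965052-23988852 (Bcl6, minus). The stretch shown for Igfals is chr17:24877981-24878214 on the plus strand, Prlr is chr15:10223656-10223905 on the plus strand and Bcl6 is chr16:23981284-23981533 on the minus strand.
Igfals: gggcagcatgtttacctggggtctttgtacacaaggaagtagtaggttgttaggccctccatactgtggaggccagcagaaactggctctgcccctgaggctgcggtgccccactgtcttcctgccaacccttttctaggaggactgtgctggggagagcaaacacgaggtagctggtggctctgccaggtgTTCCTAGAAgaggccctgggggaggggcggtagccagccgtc
Prlr: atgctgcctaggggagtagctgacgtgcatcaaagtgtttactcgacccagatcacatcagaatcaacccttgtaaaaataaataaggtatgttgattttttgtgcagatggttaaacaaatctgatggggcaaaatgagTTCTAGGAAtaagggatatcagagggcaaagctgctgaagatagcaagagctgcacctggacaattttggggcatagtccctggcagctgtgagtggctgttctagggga
Bcl6: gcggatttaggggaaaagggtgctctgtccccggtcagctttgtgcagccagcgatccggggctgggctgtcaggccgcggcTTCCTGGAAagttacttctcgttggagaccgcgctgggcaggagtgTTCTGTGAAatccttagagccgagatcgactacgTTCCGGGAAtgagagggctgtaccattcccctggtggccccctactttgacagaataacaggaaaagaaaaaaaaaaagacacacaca

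None of the 10 genes was called in any of the 5 planned comparisons, by limma. In mixed-strain Het against WT tumors, where 0.160% of 17552 genes were called, 0 of the 10 had an unadjusted p under 0.05, a level that 15.8% of all genes reached. In FVB Het against WT tumors, where 0.0248% of 16140 genes were called, 4 of the 10 had an unadjusted p under 0.05, against 14.2% of all genes. For FVB Homo against WT tumors (0.0434% called) this was 3 of the 10, against 10%. For FVB Homo against Het tumors (0% called) it was 0 of the 10, against 3.86%. In Rag1-/- livers (0.320% of 14074 genes called) it was 1 of the 10, against 12.5%. Both FVB comparisons with WT tumors share the WT libraries. A further contrast of the same fit, the mean of Het and Homo tumors against WT, was chosen after the data were seen. It called Prlr and Igfals, as it did 0.489% of all genes. The median difference of the 10 was -0.44 in the mixed strain (0.05 over all genes), with 9 of the 10 lower. It was -0.34 in FVB Het tumors (0.02 over all genes), -0.16 in FVB Homo tumors (-0.02) and 0.18 in Rag1-/- livers with ad-ARID1A (0.09).

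**Figure D1:**
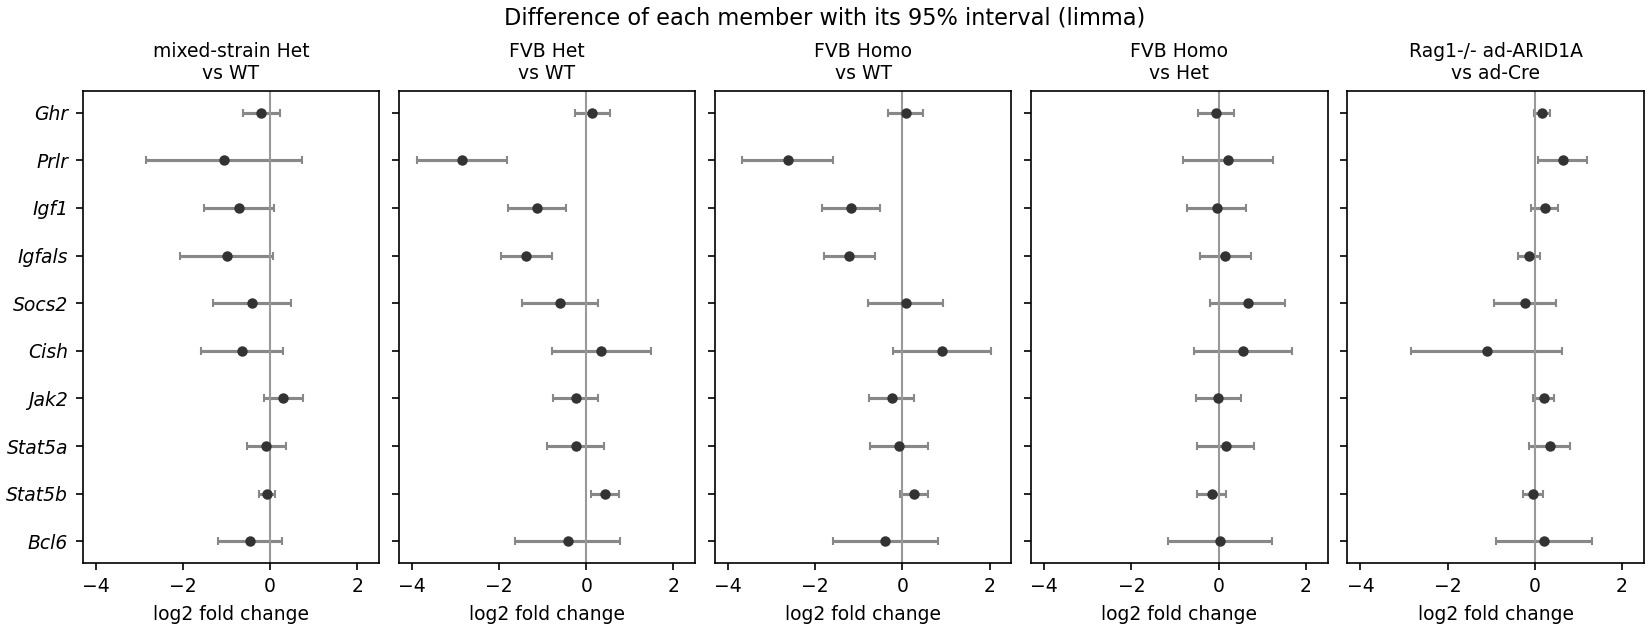
Log2 difference of each of the 10 genes in the 5 planned comparisons, as points with 95% intervals from limma. Prlr, Igf1 and Igfals lie below 0 in both FVB comparisons with WT tumors, with Prlr at -2.85 and -2.64, while the interval of Ghr spans 0 in each panel.

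Prlr, the prolactin receptor, had the largest difference of the 10 genes in each FVB comparison with WT tumors. It lay at 11.9, 30.5, 14.6 and 4.41 CPM in the 4 FVB WT tumors. In Het tumors it lay at 1.79, 1.84, 1.46 and 1.78 CPM, and in Homo tumors at 1.52, 2.85, 1.21 and 3.01 CPM. Every WT tumor was above every Het and Homo tumor, and WT 4 was the lowest WT library. The groups did not overlap in this direction for 2.47% of genes in the Het comparison, 1.98% in the Homo comparison and 0.768% with both together. The difference was -2.85 ± 0.48 SE in Het tumors (limma adjusted p = 0.0524, the 11th smallest p of the 16140 genes) and -2.64 ± 0.48 in Homo tumors (adjusted p = 0.0873). For Het and Homo together it was -2.74 ± 0.42 (adjusted p = 0.0289). Prlr rested on 12 to 30 reads in each Het or Homo library and on 47 to 366 in each WT library, and no library was at the floor of 1 CPM.

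With any single FVB library left out the Prlr difference kept its direction, and its call was not always kept. For Het and Homo together the difference ran from -3.24 to -2.31, and the adjusted p passed 0.05 without WT 2 (0.145), WT 3 (0.0651), Het 1 (0.0551), Het 2 (0.0519), Het 3 (0.0838) or Homo 1 (0.0612). Without WT 1 and WT 2, which stood apart, it was -2.12 with an adjusted p of 0.272. Markers of some other cell types moved the same way with Het and Homo together. Stellate cell and fibroblast markers were lower in 7 of 7 (2 called, against 0.489% of all genes). Their sums were 417.6 to 695.2 CPM in WT, 416.6 to 579.2 in Het and 105.6 to 653.0 in Homo tumors. Endothelial markers were lower in 5 of 6 (0 called), with sums of 103.0 to 235.2, 77.3 to 138.7 and 74.5 to 152.1 CPM. Erythroid markers were lower in 6 of 6 (0 called), with sums of 23.3 to 26.2 CPM in Het and 27.8 to 96.7 in Homo tumors. In WT tumors these sums were high only in WT 1 and WT 2 (456.2 and 460.1 CPM, against 46.17 in WT 3 and 21.17 in WT 4). Hba-a2 was at 0 in every Het and Homo library. Hepatocyte markers were lower in 4 of 9 (0 called). Biliary and progenitor cell markers were higher in 2 of 3, and the 1 B and plasma cell marker tested was higher (0 called). Of 6 neutrophil markers 5 were at 0 in every Het library (summed level 0 to 1.19 CPM) against 1 in WT tumors (2.53 to 93.3 CPM) and 0 in Homo tumors (1.80 to 138.3 CPM). The part of these cells in the Prlr difference was not tested. In bulk tissue, fewer cells of a type and less RNA per cell cannot be told apart.

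In the mixed strain, Prlr was spread over a wide range in WT tumors, from 0.283 to 116 CPM with a median of 1.83. The Het tumors ran from 0.223 to 5.11 CPM with a median of 2.36. WT 2 at 116, WT 5 at 26.1 and WT 8 at 12.2 CPM were above every Het tumor, and the other WT tumors overlapped with them. The difference was -1.06 ± 0.85 SE (limma adjusted p = 0.556), and it was -0.40 without WT 2 and -0.45 without both WT 2 and Het 5. Prlr was at 126.2, 226.0 and 133.4 CPM in the Rag1-/- livers with ad-Cre and at 298.2, 282.1 and 170.1 CPM in those with ad-ARID1A. These groups overlapped, and the difference was 0.64 ± 0.25 (unadjusted p = 0.0288, limma adjusted p = 0.339). The tables were normalized separately, so the higher Prlr level of the Rag1-/- livers is set beside that of the tumors with no test.

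Ghr, the growth hormone receptor, overlapped between the groups in every tumor comparison. FVB WT tumors had 138.1, 158.7, 156.5 and 188.7 CPM. Het tumors had 188.7, 191.3, 174.9 and 149.1 CPM, and Homo tumors 199.5, 195.4, 104.0 and 195.4 CPM. The 3 groups overlapped, with Homo 3 below every other FVB library. The difference from WT was 0.14 in Het tumors (95% interval -0.27 to 0.54) and 0.07 in Homo tumors (-0.33 to 0.48), and limma's adjusted p was 0.814 and 0.943. These intervals leave room for a moderate change in either direction, and for Homo tumors the sign turned without WT 1 and WT 2 (-0.04). Mixed-strain WT tumors ran from 161.0 to 423.6 CPM (median 226.7) and Het tumors from 112.8 to 287.0 (median 227.1). They overlapped, with WT 2 the highest and Het 5 the lowest library, and the difference was -0.20 ± 0.20 (adjusted p = 0.638), or 0.04 without those 2 libraries.

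Ghr in Rag1-/- livers was at 792.4, 776.0 and 754.8 CPM with ad-Cre and at 837.5, 910.2 and 867.1 CPM with ad-ARID1A. Every ad-ARID1A liver was above every ad-Cre liver, as were 13.9% of all genes. The difference was 0.17 ± 0.08 SE (limma adjusted p = 0.434). Levels of different genes can be compared per kb of merged exon. On that scale Ghr was above Prlr in 16 of 16 mixed-strain, 12 of 12 FVB and 6 of 6 Rag1-/- libraries. The median ratio of Ghr to Prlr was 155.7 in mixed-strain tumors, 129.2 in FVB tumors and 7.23 in Rag1-/- livers. In the same order the ratios ran from 6.189 to 1982, from 8.82 to 223.0 and from 4.759 to 10.63. Both tumor ranges thus overlapped with that of the livers, and WT 2 had the lowest ratio in each tumor set. The FVB median pools WT tumors with Het and Homo tumors. Prlr per kb was at 0.2873 to 1.987 CPM in FVB WT, 0.09545 to 0.12 in Het and 0.07861 to 0.1963 in Homo tumors.

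**Figure D2:**
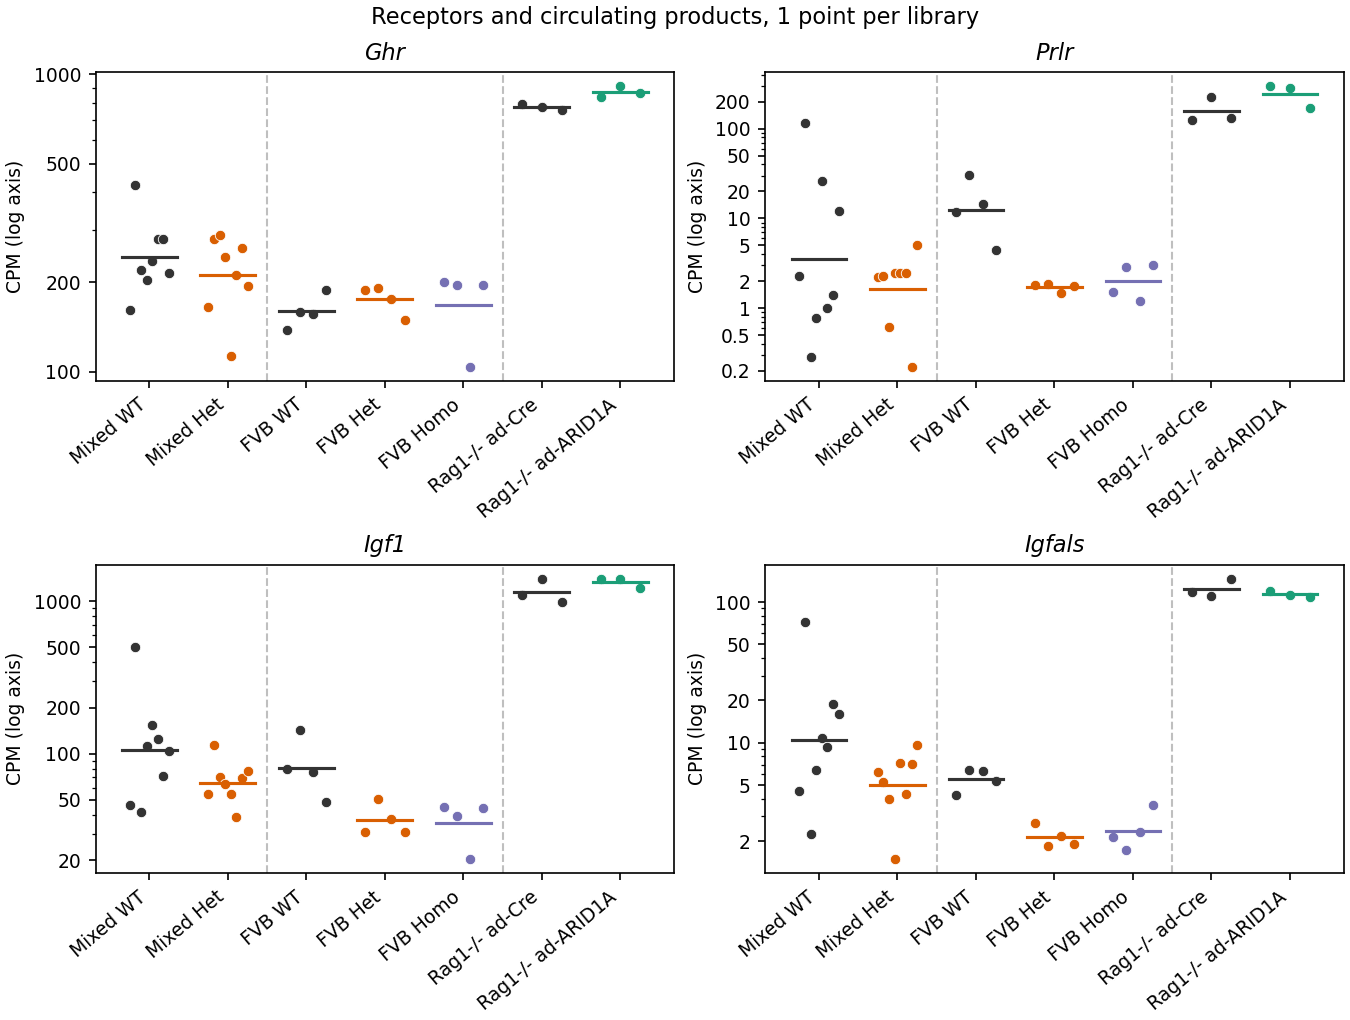
CPM on a log axis for Ghr, Prlr, Igf1 and Igfals, with 1 point per library and a line at the geometric mean of each of the 7 groups. Dashed lines part the 3 separately normalized tables. The 4 FVB WT tumors lie above all Het and Homo tumors for Prlr and Igfals, while Ghr overlaps among the FVB groups.

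Igfals, which encodes the acid-labile subunit that carries IGF1 in blood, separated WT from Het and Homo tumors in FVB, as Prlr did. WT tumors had 4.23, 6.41, 6.32 and 5.35 CPM. Het tumors had 2.68, 1.84, 2.19 and 1.89 CPM, and Homo tumors 2.14, 1.74, 2.31 and 3.60 CPM. No WT tumor overlapped with a Het or Homo tumor. The difference was -1.37 ± 0.27 SE in Het tumors (limma adjusted p = 0.0730) and -1.22 ± 0.27 in Homo tumors (adjusted p = 0.149). For both together it was -1.30 ± 0.23 (adjusted p = 0.0412). That call was lost, with differences of -1.35 to -1.22, without Het 1, Het 2, Het 3, Homo 1, Homo 2, Homo 3, WT 2 or WT 3 (adjusted p from 0.0573 to 0.199), and without WT 1 and WT 2 it was -1.38 (adjusted p = 0.226). The same groups differed in the cell markers given above, and the part of those cells was not tested for Igfals.

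Igf1, the circulating growth factor made largely by hepatocytes under growth hormone, was lower by a similar amount in both deleted FVB groups without passing the test. WT tumors had 79.3, 143 and 76.1 CPM with 48.5 in WT 4, Het tumors 30.9, 50.2, 37.5 and 30.7 CPM, and Homo tumors 44.6, 38.9, 20.5 and 44.0 CPM. All Homo tumors were below all WT tumors, and Het 2 overlapped with WT 4. The difference was -1.14 ± 0.31 SE in Het tumors (limma adjusted p = 0.134), -1.19 ± 0.31 in Homo tumors (adjusted p = 0.205) and -1.16 ± 0.27 for both together (adjusted p = 0.0682). With single WT libraries left out the last ran from -0.885 without WT 2 (adjusted p = 0.323) to -1.405 without WT 4 (adjusted p = 0.0236), and without both WT 1 and WT 2 it was -0.76 (adjusted p = 0.527).

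Mixed-strain tumors had Igf1 at 41.8 to 504 CPM (median 108.2) in WT and 38.4 to 114.4 (median 66.0) in Het tumors. Igfals was at 2.25 to 72.5 CPM in WT and 1.497 to 9.63 CPM in Het tumors. WT 2 was the highest library for both genes, as it was for Prlr and Ghr, and WT 5 and WT 6 for Igf1 and WT 5, WT 7 and WT 8 for Igfals were also above every Het tumor, while the other WT tumors overlapped with them. The difference was -0.71 ± 0.38 SE for Igf1 and -0.996 ± 0.51 for Igfals (limma adjusted p = 0.374 and 0.353), and -0.39 and -0.61 without WT 2. Igf1 in Rag1-/- livers was at 1105, 1399 and 982.3 CPM with ad-Cre and 1409, 1409 and 1218 CPM with ad-ARID1A, a difference of 0.22 ± 0.13. Igfals was at 118.6, 109.9 and 147.0 CPM with ad-Cre and 120.3, 113.0 and 108.4 CPM with ad-ARID1A, a difference of -0.13 ± 0.11. Both pairs of groups overlapped. Per kb of exon, Igf1 was above Igfals in all 34 libraries.

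Stat5b was the more abundant of the paired transcription factors. Per kb of exon it exceeded Stat5a in all 34 libraries, by a median ratio of 7.36 in mixed-strain tumors, 6.99 in FVB tumors and 4.59 in Rag1-/- livers. Stat5b lay at 117, 113, 78.8 and 99.7 CPM in FVB WT tumors, 141, 155, 148 and 103 in Het tumors and 126, 106, 132 and 121 in Homo tumors. Het 4 and Homo 2 overlapped with WT tumors. The difference was 0.42 ± 0.15 SE in Het tumors (unadjusted p = 0.0144, limma adjusted p = 0.229) and 0.26 ± 0.15 in Homo tumors (adjusted p = 0.608), opposite in sign to Prlr, Igf1 and Igfals. Without WT 1 and WT 2 the Stat5b differences were 0.61 and 0.45 (adjusted p = 0.421 and 0.709). Stat5b in the mixed strain ran from 162.1 to 228.1 CPM in WT and from 166.7 to 221.9 in Het tumors, with a difference of -0.08 ± 0.09, and in Rag1-/- livers the difference was -0.04 ± 0.10.

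Stat5a, its neighbour on chr11 with a closely similar coding sequence, ran from 15.4 to 33.1 CPM in FVB WT, 10.2 to 29.9 in Het and 18.0 to 25.1 in Homo tumors. Jak2, the receptor-bound kinase, ran from 20.4 to 37.5, from 17.1 to 31.8 and from 17.9 to 29.4 CPM in the same groups. Neither gene separated any of the tumor groups. Jak2 in Rag1-/- livers was at 29.0, 27.5 and 28.1 CPM with ad-Cre and 34.5, 31.6 and 31.1 CPM with ad-ARID1A. These groups did not overlap, as for 13.9% of genes in this direction, and the difference was 0.20 ± 0.10 SE (limma adjusted p = 0.472). Jak2 was in the mixed strain the only 1 of the 10 genes with a positive difference, at 0.30 ± 0.21 (adjusted p = 0.502), or 0.17 without WT 2 and Het 5. Reads of Stat5a and Stat5b may be shared by similar sequence, and the sources used here do not say whether counting kept strand, which matters most for Cish (7.46% of its exon bases lie over the opposite-strand Gm17041).

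The inhibitor Socs2 and the related Cish, both induced by STAT5 as negative feedback, overlapped between the groups in every comparison. Socs2 ran from 2.28 to 5.24 CPM in FVB WT, 1.22 to 3.86 in Het and 2.40 to 4.59 in Homo tumors. Its difference was -0.60 ± 0.40 SE in Het and 0.07 ± 0.40 in Homo tumors. Cish was at 6.02, 7.46, 5.58 and 3.56 CPM in FVB WT tumors, 2.99, 9.85, 5.21 and 15.2 in Het tumors and 3.89, 10.1, 16.3 and 17.1 in Homo tumors. Cish reached higher values in the deleted groups while overlapping with WT, and its difference was 0.35 ± 0.52 in Het and 0.91 ± 0.52 in Homo tumors (limma adjusted p = 0.831 and 0.608). In the mixed strain both had negative differences, -0.41 ± 0.43 for Socs2 and -0.65 ± 0.45 for Cish (adjusted p = 0.659 and 0.488). Their correlation with group means removed was 0.555 over 16 mixed-strain tumors (permutation p = 0.0321, adjusted p = 0.192 over 45 pairs; rho 0.482, permutation p = 0.0695, adjusted p = 0.411), and 0.458 without Het 5 and WT 8. Over 12 FVB tumors it was -0.033 (permutation p = 0.930, adjusted p = 0.997; rho -0.049, permutation p = 0.888), and 0.393 without Het 3 and Het 4. Socs2 rested on as few as 3 reads in a mixed-strain library.

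In the Rag1-/- set 1 library, ad-ARID1A 3, stood apart for Cish and Bcl6. Cish was at 59.3, 33.8 and 38.9 CPM in livers with ad-Cre, and at 55.0, 36.0 and 3.97 CPM in livers with ad-ARID1A. In that last library Socs2 was the lowest of the 6, at 22.9 CPM against 37.0 to 63.6 in the others, and Bcl6 the highest, at 78.8 CPM against 16.8 to 48.5. The differences were -1.10 ± 0.78 SE for Cish, -0.22 ± 0.32 for Socs2 and 0.20 ± 0.49 for Bcl6. Without that library they were 0.06, 0.19 and -0.34, so each changed sign, and Bcl6 was also at -0.27 without ad-Cre 3. Limma's adjusted p was 0.605, 0.809 and 0.900 with all libraries. Ghr in that library, at 867.1 CPM, lay between the others of its group. Igf1 and Prlr were the lowest of that group, at 1218 and 170.1 CPM, and within the range of the ad-Cre livers.

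**Figure D3:**
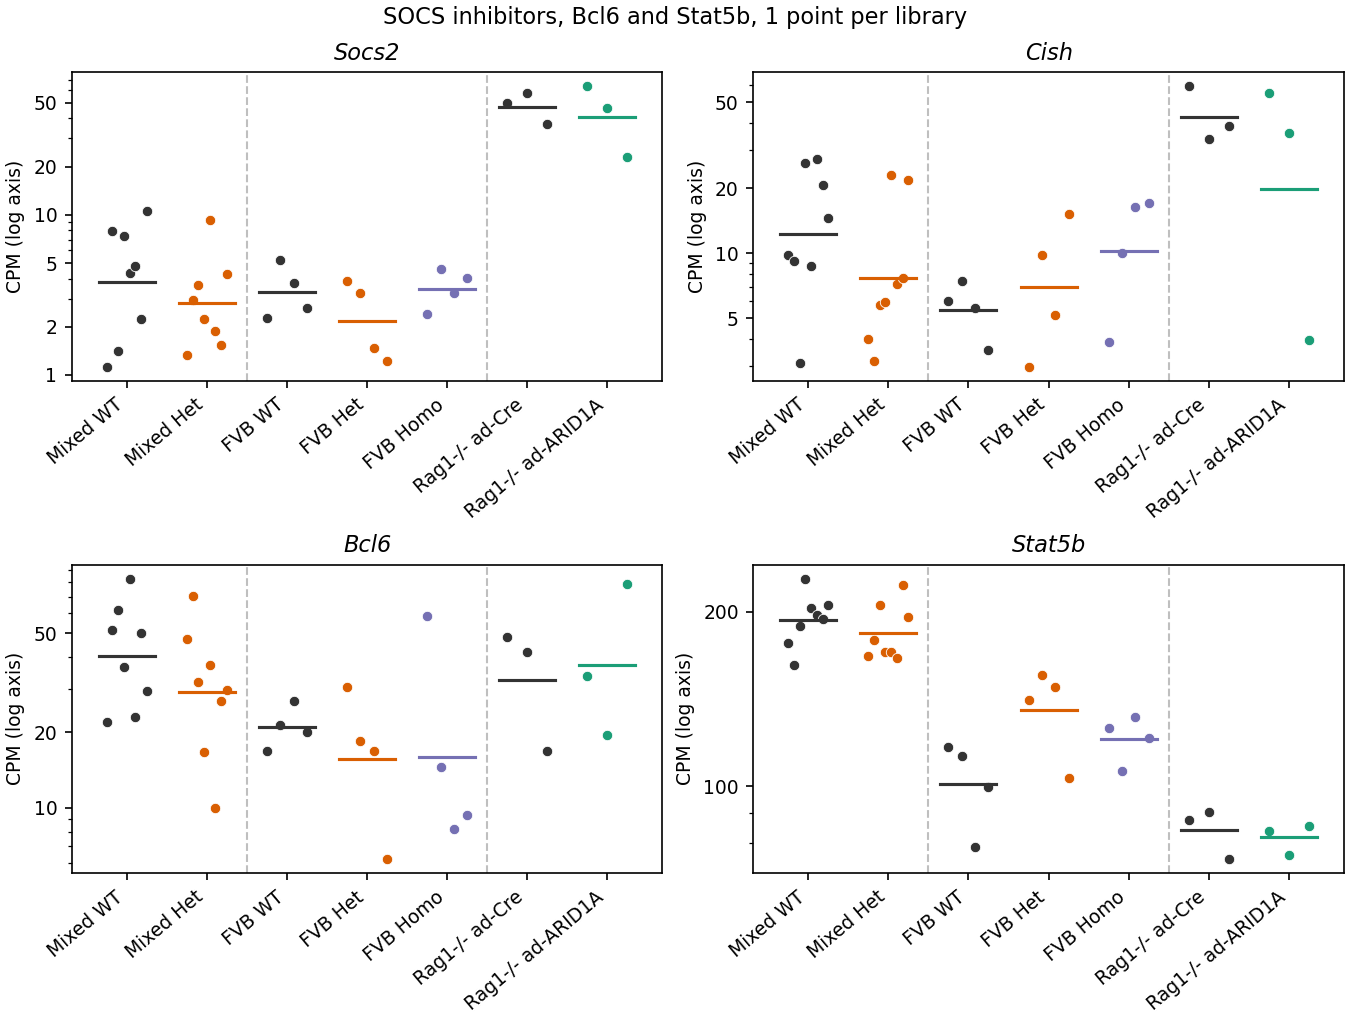
CPM on a log axis for Socs2, Cish, Bcl6 and Stat5b, with 1 point per library and a line at the geometric mean of each group. The library ad-ARID1A 3 lies at 3.97 CPM for Cish and 78.8 CPM for Bcl6, and the other 2 livers of its group lie among the ad-Cre livers.

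Bcl6, the repressor that shares sites with STAT5, varied less among FVB WT tumors (log2 SD 0.27) than among Het (0.96) and Homo tumors (1.30), a difference in spread that was not tested. FVB WT tumors had 16.9, 21.4, 26.7 and 20.1 CPM. Het tumors ran from 6.23 to 30.5 CPM and Homo tumors from 8.22 to 58.9. These groups enclosed the WT range, and the differences were -0.43 ± 0.56 SE and -0.39 ± 0.56 (limma adjusted p = 0.797 and 0.867). Mixed-strain WT tumors ran from 21.9 to 82.9 CPM and Het tumors from 10 to 70.5, with a difference of -0.46 ± 0.35 (adjusted p = 0.527).

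Bcl6 and Cish had a negative correlation from tumor to tumor that did not pass adjustment. Over the 12 FVB tumors, with the group mean of each gene removed, Pearson's r was -0.871 (permutation p = 0.00416) and Spearman's rho -0.755 (permutation p = 0.0127). Over the 45 pairs of the 10 genes the adjusted values were 0.187 and 0.114. Without the 2 libraries farthest from the median of Cish, Homo 3 and Homo 4, r was -0.813. Over the 16 mixed-strain tumors r was -0.332 (permutation p = 0.227) and rho -0.532 (permutation p = 0.0449), with adjusted values of 0.567 and 0.404. Without WT 4 and WT 6 that r was -0.243. The 45 pairs were looked at after the data were seen, apart from the 9 with Ghr, and libraries share their processing.

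**Figure D4:**
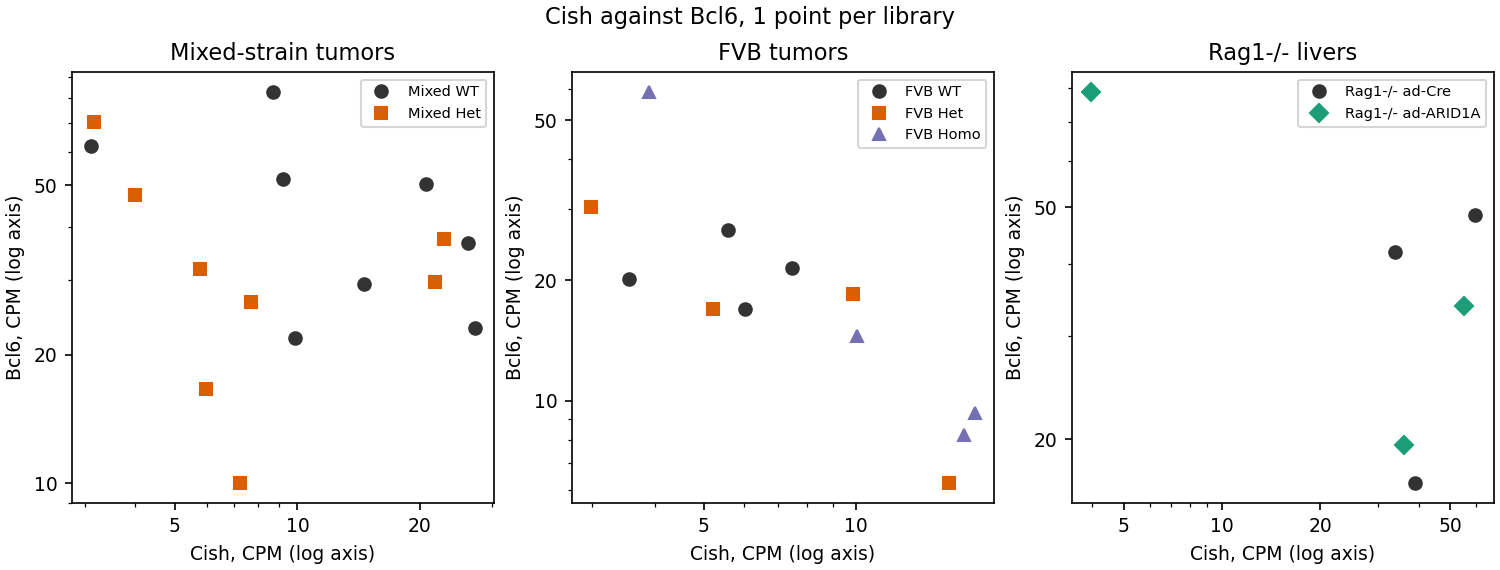
Bcl6 against Cish in CPM, both on log axes, with 1 point per library and 1 panel per table. In FVB tumors Bcl6 is highest at 58.9 CPM where Cish is 3.89 CPM and lowest at 6.23 CPM where Cish is 15.2 CPM, and in Rag1-/- livers the library with Cish at 3.97 CPM has Bcl6 at 78.8 CPM.

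Ghr and Igf1 had a positive correlation from tumor to tumor in the mixed strain, with an r of 0.625 (permutation p = 0.0082) and a rho of 0.571 (permutation p = 0.0209). The adjusted values over 45 pairs were 0.136 and 0.404, and r was 0.453 without WT 2 and Het 5. In FVB that r was 0.454 (permutation p = 0.181) and rho 0.417 (permutation p = 0.194), and r turned to -0.199 without Homo 3 and WT 1. None of the 9 relations of Ghr had an adjusted p under 0.05 in either strain. Stat5a and Stat5b were the only pair that passed for any measure, by rank over the FVB tumors (rho 0.958, permutation p = 0.00089, adjusted p = 0.040). Pearson's r for that pair was 0.829 (permutation p = 0.0105, adjusted p = 0.214), and 0.566 without Het 4 and WT 1. In the mixed strain r was 0.378 (permutation p = 0.183) and rho 0.216 (permutation p = 0.447).

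The genes most like 3 of the members are given as a description, by Pearson's r among genes of at least 5 CPM on average. In the mixed strain Ghr was most like Lin7a (0.912), Tmem86b (0.912) and Rgn (0.877), Prlr was most like Cyp2c29 (0.884), Baat (0.867) and Sqrdl (0.848), and Igf1 was most like Ugt2b1 (0.945), Slc27a5 (0.899) and Cyp2a4 (0.894), over 16 libraries. In FVB Ghr was most like Golph3l (0.942), Myo9a (0.929) and Ctnnd1 (0.926), over 12 libraries. Prlr was there most like Ifitm3 (0.954), Dnase1l3 (0.945) and Hao1 (0.943), and Igf1 most like Csf1 (0.980), Zbtb20 (0.964) and Fam98b (0.950). These r hold the differences between groups as well as those between libraries.

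The wider signaling set of kinases, SOCS proteins, phosphatases and cytokine receptors stayed centred on 0. Of the 32 genes tested in the mixed strain, 15 were lower and 17 higher with 0 called, and the median was 0.03. The smallest p went to Lifr, the leukemia inhibitory factor receptor (-1.02 ± 0.22 SE, limma adjusted p = 0.0771), and Grb10, an adaptor that restrains insulin and IGF receptors (-2.46 ± 0.65, adjusted p = 0.123). In FVB 31 genes were tested with 0 called in each planned comparison, and 15 were higher and 16 lower in each comparison with WT tumors. Il6st, the shared gp130 receptor subunit, was at 195, 228, 117 and 115 CPM in WT tumors and at 88.7 to 113 CPM in all Het and Homo tumors. Its groups did not overlap, as for 2.47% of genes in this direction in the Het and 1.98% in the Homo comparison, and WT 3 and WT 4 lay close to the others. Its difference was -0.71 ± 0.19 in Het and -0.60 ± 0.19 in Homo tumors (adjusted p = 0.128 and 0.302), or -0.28 and -0.16 without WT 1 and WT 2 (adjusted p = 0.483 and 0.801). Insr, the insulin receptor, went the other way, at 229.1 to 259.6 CPM in WT, 259.6 to 377.4 in Het and 278.2 to 308.7 in Homo tumors. Het tumors reached the WT range, and Homo tumors lay above it, as for 2.09% of genes in this direction. Without WT 1 and WT 2 the Het difference of Insr was 0.34 (limma adjusted p = 0.498). In Rag1-/- livers 23 of 31 were higher with 0 called, and the median was 0.07 against 0.09 over all genes.

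Among IGF partners, Igfbp2, an IGF-binding protein, was lower in mixed-strain Het tumors. It was the 1 gene called of the 16 tested, where 0.160% of all genes were called. It ran from 12.3 to 204.1 CPM in WT (median 118.9) and from 0.741 to 34.0 in Het tumors (median 6.19). WT 7 at 12.3 CPM overlapped with the Het tumors, and the other WT tumors were above them all. The difference was -3.91 ± 0.66 SE (limma adjusted p = 0.0256). The call was lost without Het 1, Het 3, Het 6, WT 1, WT 6 or WT 8 (adjusted p from 0.0529 to 0.0623) while the difference stayed between -4.33 and -3.58. In FVB Igfbp2 was at 96.3, 80.5, 33.8 and 7.57 CPM in WT and 5.82, 5.86, 2.60 and 12.4 CPM in Het tumors, which overlapped, with a difference of -2.71 ± 0.80 (adjusted p = 0.158), or -1.48 without WT 1 and WT 2 (adjusted p = 0.662). Hepatocyte markers were lower in 9 of 9 in mixed-strain Het tumors (sums of 2749 to 6125 CPM against 5216 to 11540 in WT) and neutrophil markers in 6 of 6 (5.50 to 32.7 against 11.6 to 144.0 CPM), with 0 called, and their part in the mixed-strain values was not tested. Of the 16 IGF partners 13 were lower in the mixed strain, with a median of -0.19, and in FVB 7 of 15 were lower in Het and 6 of 15 in Homo tumors. Irs2, an adaptor of the insulin and IGF receptors, had a difference of 1.12 ± 0.34 in FVB Homo tumors (adjusted p = 0.268), or 0.71 without WT 1 and WT 2 (adjusted p = 0.785).

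Growth hormone-responsive genes known as higher in male mouse liver had mostly negative differences in the tumors. In the mixed strain 18 of 20 were lower with a median of -1.05 and 0 called. In FVB 15 of 17 were lower in Het tumors (median -1.01) and 14 of 17 in Homo tumors (median -1.10), with 0 called in both. The medians over all genes were 0.05, 0.02 and -0.02. With Het and Homo together 14 of 17 were lower and 1 was called, Ugt2b1, where 0.489% of all genes were called. Ugt2b1 was at 2.03 to 20.1 CPM in WT, 0 to 3.03 in Het and 0 to 1.30 in Homo tumors, in part at the floor of 1 CPM. That call was lost without WT 1 and WT 2 (-2.64, limma adjusted p = 0.0709). Slco1a1, an organic anion transporter, was at 8.63, 48.8, 37.3 and 14.7 CPM in FVB WT tumors and 2.64, 2.19, 1.31 and 7.01 CPM in Homo tumors. These did not overlap, as for 1.98% of genes in this direction, and the difference was -3.02 ± 0.70 SE (limma adjusted p = 0.156). Genes known as higher in female liver were lower in 16 of 19 in the mixed strain (median -0.81) and higher in 9 of 15 in FVB Het and 10 of 15 in FVB Homo tumors (medians 0.22 and 0.32), with 0 called. Without Het 4, the library with the most Xist, the Het medians were -1.08 for the male-biased and 0.41 for the female-biased genes. Cux2, a female-biased repressor, was at 30.3, 16.9, 31.6 and 33.1 CPM in FVB WT, 57.3, 52.4, 49.9 and 38.0 in Het and 58.9, 38.9, 90.5 and 61.4 in Homo tumors. No WT tumor overlapped with the others, as for 4.41% of genes in this direction in the Het and 2.09% in the Homo comparison, and the difference was 0.85 ± 0.26 in Het and 1.14 ± 0.26 in Homo tumors (adjusted p = 0.162 and 0.150). Female-biased Trim24 was lower, at 36.5 to 44.32 CPM in Homo against 45.25 to 51.98 in WT tumors. These did not overlap, as for 1.98% of genes in this direction, while Het tumors (41.93 to 47.84) overlapped with WT. Ntrk2, of the same set, was at 0 in every Het and Homo tumor and at 0 to 3.58 CPM in WT tumors.

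In Rag1-/- livers the 2 sex-biased sets had medians on opposite sides of that of all genes. Of the female-biased genes 16 of 18 were higher with ad-ARID1A, with a median of 0.69 and 2 called, and of the male-biased genes 16 of 24 were lower, with a median of -0.21 and 1 called. Over all genes the median was 0.09 and 0.320% were called. Cyp2b9, a female-biased cytochrome P450, was listed at 0, 1.22 and 0 CPM with ad-Cre and at 12.2, 14.2 and 6.41 CPM with ad-ARID1A (3.28 ± 0.34 SE, limma adjusted p = 0.00589). Cyp2a4, another of that group, was at 0, 1.505 and 4.69 CPM with ad-Cre and at 44.3, 21.6 and 15.03 CPM with ad-ARID1A (3.66 ± 0.55, adjusted p = 0.0313). Moxd1, known as higher in male liver, was at 124, 9.45 and 200 CPM with ad-Cre and at 0, 0 and 1.10 CPM with ad-ARID1A (-5.90 ± 0.89, adjusted p = 0.0313). None of the 3 overlapped between the groups, as for 13.9% of genes in the upward and 3.47% in the downward direction. Without overlap, 4 of the 24 male-biased genes were higher and 5 lower, and 6 of the 18 female-biased genes were higher and 0 lower. Male-biased Cyp2d9 was among those higher, at 1090 to 1105 CPM with ad-ARID1A against 903.9 to 942.3 with ad-Cre. Cyp2a4 and Cyp2b9 have near-identical relatives, so their counts are uncertain. Values near 0 depend on the floor of 1 CPM, and values held at that floor show no spread. The lower group of Cyp2b9 and of Moxd1 lay almost wholly at it, so a lack of overlap was nearly fixed in advance. For these genes neither the lack of overlap nor the p-value is taken as support. Leaving out single libraries ended each call: Cyp2b9 without ad-ARID1A 1 or 2 or ad-Cre 1 or 3 (adjusted p from 0.0593 to 0.101), Cyp2a4 without ad-ARID1A 1, 2 or 3 or ad-Cre 1 or 2 (0.106 to 0.232), and Moxd1 without ad-ARID1A 1, 2 or 3 or ad-Cre 1 or 3 (0.152 to 0.249). In each case the direction was kept. Endothelial markers were higher in 6 of 6 with ad-ARID1A (sums of 338.6 to 368.1 against 291.6 to 331.7 CPM), stellate cell and fibroblast markers in 6 of 7 (456.2 to 540.1 against 272.9 to 493.6 CPM) and hepatocyte markers in 2 of 9 (67450 to 77420 against 76330 to 83190 CPM), with 0 called. Their part in these differences was not tested.

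**Figure D5:**
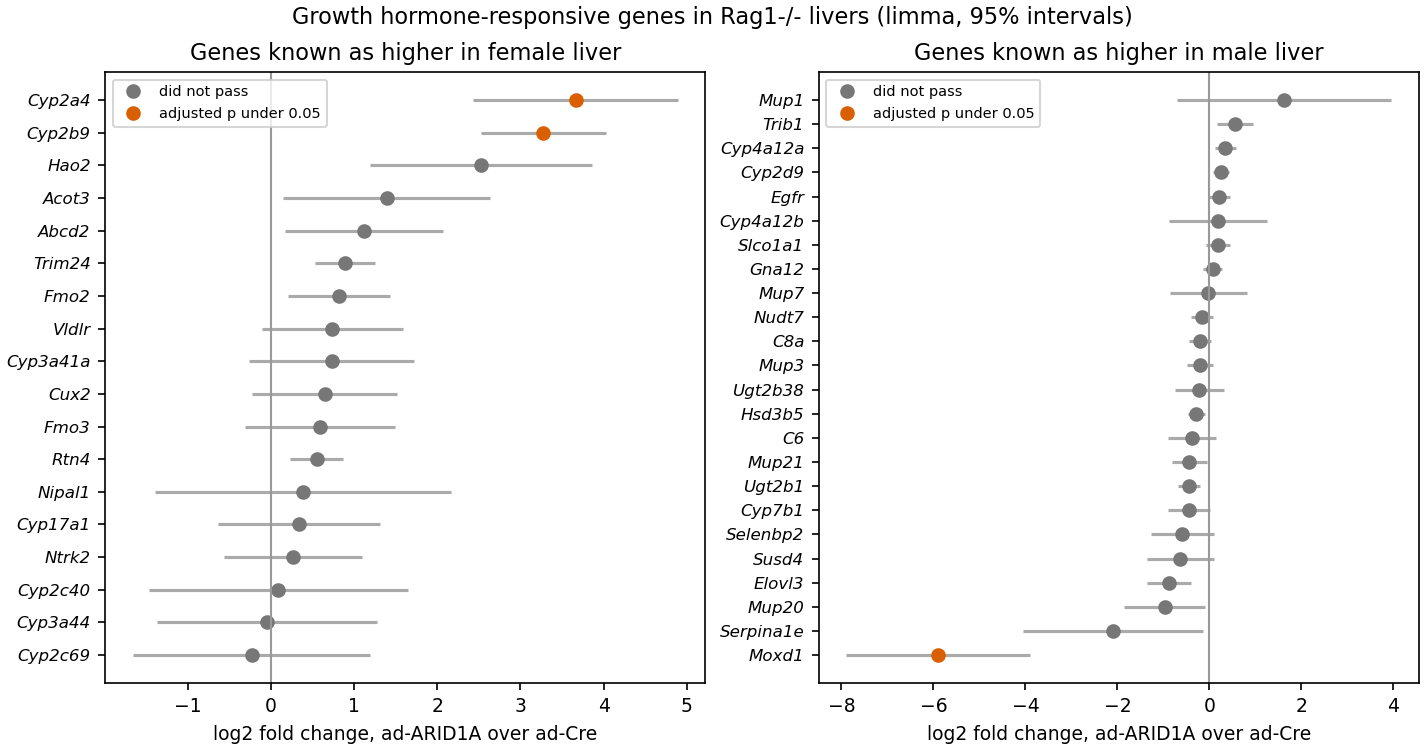
Log2 difference, ad-ARID1A over ad-Cre, of growth hormone-responsive genes known as higher in female (left) or male (right) mouse liver, with 95% intervals from limma and called genes in orange. Of the female-biased genes 16 of 18 lie above 0, with Cyp2a4 at 3.66 and Cyp2b9 at 3.28, and Moxd1 lies lowest of the male-biased genes at -5.90.

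Transcripts of the hormones themselves were mostly below the filter or not listed. Of Gh, Prl, Ghrh and Ghrl, and of the receptor gene Ghsr, only Ghrl passed the mixed-strain filter or was listed in the FVB table. None of these genes was listed in that of Rag1-/- livers.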

How the data were processed

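RNA was sequenced from frozen liver tumors and livers in 34 libraries, and per the submitters' processing notes the tools were Trim Galore, HISAT2, SAMtools and featureCounts with the mouse build GRCm38 (mm10). Versions, strand setting and normalization steps: not given in the sources used here. Log2 values are what the authors deposited in each of the 3 tables. Those of FVB tumors and Rag1-/- livers are log2 CPM with values at or below 1 CPM listed at 0. The mixed-strain table is named RPKM by the authors, but its deposited values behave as log2(CPM + 1) and were used as CPM. Reads per library were read off the steps of low values, 100% of which were whole within 0.1 reads.

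Separate limma 3.58.1 fits (R 4.3.3, eBayes with a trend) were made per table. Mixed-strain genes averaging 0.5 CPM or more entered as log2(CPM + 0.5), and the other tables entered as the deposited log2 CPM. The 3 FVB groups shared a fit. Folds of low genes are understated on these scales. A gene was called where its two-sided p, adjusted by Benjamini-Hochberg across the whole table, was under 0.05, and the fit was tested on simulated data. Correlations used values with group means removed and 100000 permutations within groups. All 10 members were named, and in each other list the called genes (up to 4 in each direction) or else the 2 with the smallest p were named, with a rule of the 3 most alike genes for Ghr, Prlr and Igf1. Members and lists were chosen with earlier results of these data known. Alternatives changed the filter, pseudocount, scaling, spread model, block, groups in the fit and libraries. The labels call the ad-ARID1A samples by ad-Cre column names, and they were matched by title and number. The treatment text gives Het and Homo genotypes alike, so the genotype field was used.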

Additional observations from a re-analysis of the deposited data

Results flagged for a closer look

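In 50 groups of 4 or 8 libraries, 3 had a library whose gap to its nearest neighbour was large for the range of the group, and chance gives about 5% of groups. Stat5a in the mixed-strain library WT 1 was the highest of 8, at 5.57 on the log2 scale. Ghr in the FVB library Homo 3 was the lowest of 4, at 6.70 on the log2 scale, and Bcl6 in that library was the lowest of its group. Prlr in the FVB library Het 3 was the lowest of 4, at 0.55 on the log2 scale, with the other 3 Het libraries between 0.83 and 0.88.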

How the results depend on the processing

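Of the 10 members, 0 were called in the mixed strain, in FVB Homo against Het tumors and in Rag1-/- livers under every alternative run. In FVB Het against WT tumors the count was 4 with array weights (2287 genes called in all), 1 with robust empirical Bayes, 1 with CPM without the most abundant gene, and 0 to 3 with single libraries left out (3 without WT 4, 1 without Het 4). In FVB Homo against WT tumors it was 1 with array weights and 0 to 1 with single libraries left out (1 without WT 4). For Het and Homo together the 2 calls became 0 when genes averaging under 2 on the log2 CPM scale were dropped (neither gene was then tested), 0 with genes above 0 in every library (adjusted p = 0.0540 for both), 0 without WT 1 and WT 2, 1 with the replicate block and 0 to 3 with single libraries left out. Whether replicate numbers pair the samples was not tested. Same-numbered libraries of compared groups, with group means removed, had correlations of -0.21 to 0.30 in the mixed strain and -0.36 to 0.40 in FVB. The replicate block gave 0 members called in each planned comparison. The cause of these moves was not tested.

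Leaving out the libraries that stood apart and the contrast of both FVB groups together were chosen after the data were seen. Without WT 1 and WT 2 the FVB Het difference was 0.13 for Jak2 and 0.18 for Stat5a, the Homo difference -0.035 for Ghr, 0.12 for Jak2 and 0.34 for Stat5a, and that of both together -0.004 for Ghr, 0.13 for Jak2 and 0.26 for Stat5a. Without WT 2 and Het 5 the mixed-strain difference of Ghr was 0.042. For Homo against Het tumors, Igf1 was 0.002 with quantile normalization, Jak2 0.036 with median-of-ratios scaling and 0.048 with quantile normalization, and Stat5a -0.11 and Bcl6 -0.19 with array weights. With single libraries left out, the ranges that crossed 0 in FVB Het against WT tumors were -0.75 to 0.014 (Bcl6), -0.03 to 0.75 (Cish) and -0.46 to 0.055 (Stat5a). In Homo against WT tumors they were -0.011 to 0.30 (Ghr), -0.11 to 0.29 (Socs2) and -0.26 to 0.10 (Stat5a), and for both together -0.35 to 0.021 (Stat5a). In Homo against Het tumors they were -0.59 to 0.36 (Bcl6), -0.15 to 0.17 (Ghr), -0.16 to 0.21 (Igf1), -0.051 to 0.30 (Igfals), -0.17 to 0.14 (Jak2) and -0.14 to 0.38 (Stat5a). In Rag1-/- livers they were -0.34 to 0.67 (Bcl6), -1.84 to 0.058 (Cish), -0.55 to 0.19 (Socs2) and -0.12 to 0.013 (Stat5b), and in the mixed strain -0.24 to 0.045 (Stat5a). Among other named genes, Igfbp2 in the mixed strain had an adjusted p of 0.158 with no filter on low values, and in Rag1-/- livers robust empirical Bayes gave 0.162 for Cyp2a4 and 0.234 for Moxd1. The planned term for sex was not run, since no library had Xist above Ddx3y. Depth limits Prlr, with as few as 1 read in a mixed-strain library, and Socs2, with as few as 3.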
